A study of Homo sapiens with 9 samples.

Results

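Fibroblast growth factor (FGF) receptors, ligands and a carrier protein, 9 genes in all, were followed in MCF10A cells, across cells with vector only, with human deltaNp63alpha and with human deltaNp63beta. These were the 4 receptor tyrosine kinases FGFR1, FGFR2, FGFR3 and FGFR4, the receptor-like FGFRL1, the carrier protein gene FGFBP1 and the ligand genes FGF2, FGF5 and FGF11. They were chosen by name, and all 9 were found by Ensembl gene ID among the 41857 genes of each file. MCF10A is a non-tumorigenic human mammary epithelial line, grown here with horse serum, epidermal growth factor, hydrocortisone, cholera toxin and insulin. All 3 groups, vector included, had the genotype given as WT and received 500 ng/mL doxycycline for 24 h, with 3 biological replicates each. The labels do not say whether a line was 1 clone or a pool. RNA was selected by its poly(A) tail and sequenced, and every value below is a normalized estimated count per gene unless a per-kb scale is named. The sum of these values over all genes ranged from 22.5 to 23.2 M (mega) per library.

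Most FGF ligands are secreted proteins that pair their receptors with the help of heparan sulfate chains on the cell surface and in the matrix. An engaged receptor signals through adaptors to the RAS and MAP kinase cascade, and the cascade induces its own inhibitors, among them Sprouty proteins and dual-specificity phosphatases. In skin and mammary epithelium, p63 marks the basal cells, and FGF receptors bearing the epithelial form of the third immunoglobulin domain answer ligands made by the stroma. Of the deltaNp63 forms, which lack the N-terminal activation domain of full-length p63, alpha has the longer C-terminus and beta the shorter. FGFRL1 lacks a kinase domain, FGFBP1 releases FGFs from the matrix, and FGF11 belongs to the FGF homologous factors, which stay in the cell.

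All 9 genes are protein coding, and 5 of the 9 lie on chromosome 4 of GRCh38 in GENCODE release 29. FGFRL1 (ENSG00000127418) spans 1009936 to 1026897 on the plus strand there. FGFR3 (ENSG00000068078) spans 1793293 to 1808872 on the plus strand. FGFBP1 (ENSG00000137440) is the shortest gene of the group and spans 15935569 to 15938740 on the minus strand. FGF5 (ENSG00000138675) runs from 80266599 to 80336680 and FGF2 (ENSG00000138685) from 122826708 to 122898236, both on the plus strand. FGFR2 (ENSG00000066468) lies on chromosome 10 from 121478334 to 121598458 on the minus strand. FGFR4 (ENSG00000160867) lies on chromosome 5 from 177086886 to 177098144 and FGF11 (ENSG00000161958) on chromosome 17 from 7438273 to 7444937, both on the plus strand. The position of FGFR1 is given with its values.

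The RNA of FGFBP1, FGFR3 and FGF2 had the widest range of group means on the log2 scale, so the DNA just before these genes is shown. Each run ends at the base before the annotated gene, is read 5′ to 3′ on the gene's strand and comes from the RefSeq promoter windows on GRCh38.p14. Capitals mark a match to a p53-family half-site, the decamer that p53, p63 and p73 bind in pairs. The FGFBP1 stretch is chr4:15938741-15938990 on the minus strand, the FGFR3 stretch is chr4:1793043-1793292 on the plus strand, and the FGF2 stretch is chr4:122826581-122826707 on the plus strand.
FGFBP1: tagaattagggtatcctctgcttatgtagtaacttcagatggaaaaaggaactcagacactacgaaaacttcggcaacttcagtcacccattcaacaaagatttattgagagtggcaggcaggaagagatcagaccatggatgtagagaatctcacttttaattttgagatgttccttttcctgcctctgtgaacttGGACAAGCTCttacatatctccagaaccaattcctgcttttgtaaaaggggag
FGFR3: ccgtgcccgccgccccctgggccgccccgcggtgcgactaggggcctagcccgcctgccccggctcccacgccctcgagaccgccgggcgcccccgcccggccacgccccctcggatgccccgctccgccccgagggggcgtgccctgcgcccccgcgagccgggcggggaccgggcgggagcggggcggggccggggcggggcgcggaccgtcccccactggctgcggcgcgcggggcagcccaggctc
FGF2: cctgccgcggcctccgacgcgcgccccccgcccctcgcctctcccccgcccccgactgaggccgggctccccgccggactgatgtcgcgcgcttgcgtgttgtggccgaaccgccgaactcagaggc

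The 3 stretches differ in base composition. FGFBP1 had 40.8% G or C and 2 CpG dinucleotides in 250 bases. FGFR3 had 86.8% and 40 in 250 bases, and FGF2 had 78.0% and 20 in 127 bases. Among all 35116 windows of 250 bases before to 50 after a gene start, the FGFR3 window (86.3% G or C) was richer in G and C than 99.9% of them and the FGFBP1 window (42.0%) than 14.9%.

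Windows were matched for 8 of the 9 genes, 16 windows in all, and none for FGFR1. The half-site was searched on both strands with no mismatch. It was present in 6.63% of all windows and in 2 of these 16, at bases -53 to -44 from the FGFBP1 start, the stretch in capitals above, and at bases 22 to 31 after 1 of the FGF11 starts. The AP-1 motif TGANTCA was in 7.71% of all windows and in 1 of the 16, another FGF11 window. The TEAD motif GGAATG was in 14.03% of all windows and in 3 of the 16, 2 of FGFR2 and 1 of FGFR4. None of these 3 motifs overlapped another in the 16 windows. A match describes letters and not binding, which was not measured here.

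TP63, the gene of the transgenes, was read first as a check of the labels. Its values were 316, 332 and 259 in the vector libraries, 4426, 6983 and 6961 with deltaNp63alpha, and 6719, 4183 and 4870 with deltaNp63beta. The vector libraries lay below all 6 transgene libraries, and both isoform groups overlapped. The gene-level values do not separate transgene from endogenous TP63 RNA. Libraries of the same group correlated at 0.977 to 0.981 across genes, and libraries of different groups at 0.948 to 0.974. The 8 basal epithelial markers include TP63, whose own call was fixed by the transgenes. All 8 were called higher with deltaNp63alpha, where 8.13% of all genes tested were. With deltaNp63beta 7 of 8 were called higher, where 21.8% of all genes tested were, and LAMB3 was lower. The summed level of the 8, TP63 included, was 146450 to 154498 in vector, 240969 to 261550 with deltaNp63alpha and 331060 to 343607 with deltaNp63beta. The 4 general epithelial markers summed to 12904 to 13171, 13148 to 14247 and 18929 to 20818 in the same order, with 2 called higher and 1 lower with deltaNp63alpha and 3 higher and 0 lower with deltaNp63beta. The 5 endothelial markers summed to 110.3 to 275 per library. CDH5 never passed 1.84, while KDR was at 75.7 to 149 and PECAM1 at 24.1 to 80.3. For leukocytes the sum of 6 markers was 1241 to 2086, with CD68 the largest part at 586 to 1161, and PTPRC stayed at or under 4.22. Of 3 endothelial markers tested, 0 were higher and 1 lower with deltaNp63alpha, and 0 were higher and 3 lower with deltaNp63beta, with the same counts at an unadjusted p under 0.05. Of 5 leukocyte markers tested, 0 were higher and 2 lower with deltaNp63alpha, also at an unadjusted p under 0.05, and 2 were higher and 3 lower with deltaNp63beta. Beside these marker counts, 14.5% of all genes tested were called in either direction with deltaNp63alpha and 41.3% with deltaNp63beta.

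Differences were tested with limma on log2(value + 1) in 1 fit of all 9 libraries, and a gene was called at a Benjamini-Hochberg adjusted p under 0.05 over the 15108 genes that passed a filter on low values. All 9 FGF genes passed it, FGF11 with 8 libraries at 10 or more and the others with all 9. With deltaNp63alpha against vector, 2 of the 9 were called higher and 1 lower, where 8.13% of all genes tested were higher, 6.37% lower and 14.5% either. With deltaNp63beta against vector, 3 were higher and 3 lower, where 21.8% of all genes tested were higher, 19.5% lower and 41.3% either. With deltaNp63beta against deltaNp63alpha, 2 were higher and 3 lower, where 17.4% of all genes were higher, 15.5% lower and 32.9% either. The median log2 fold change of the 9 was 0.44, 0.31 and -0.13 in these 3 comparisons, beside -0.006, -0.005 and 0 over all genes tested. The comparisons with vector share the vector libraries and are therefore not independent of each other. In bulk RNA, fewer cells expressing a gene and less of its RNA per cell cannot be told apart.

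**Figure D1:**
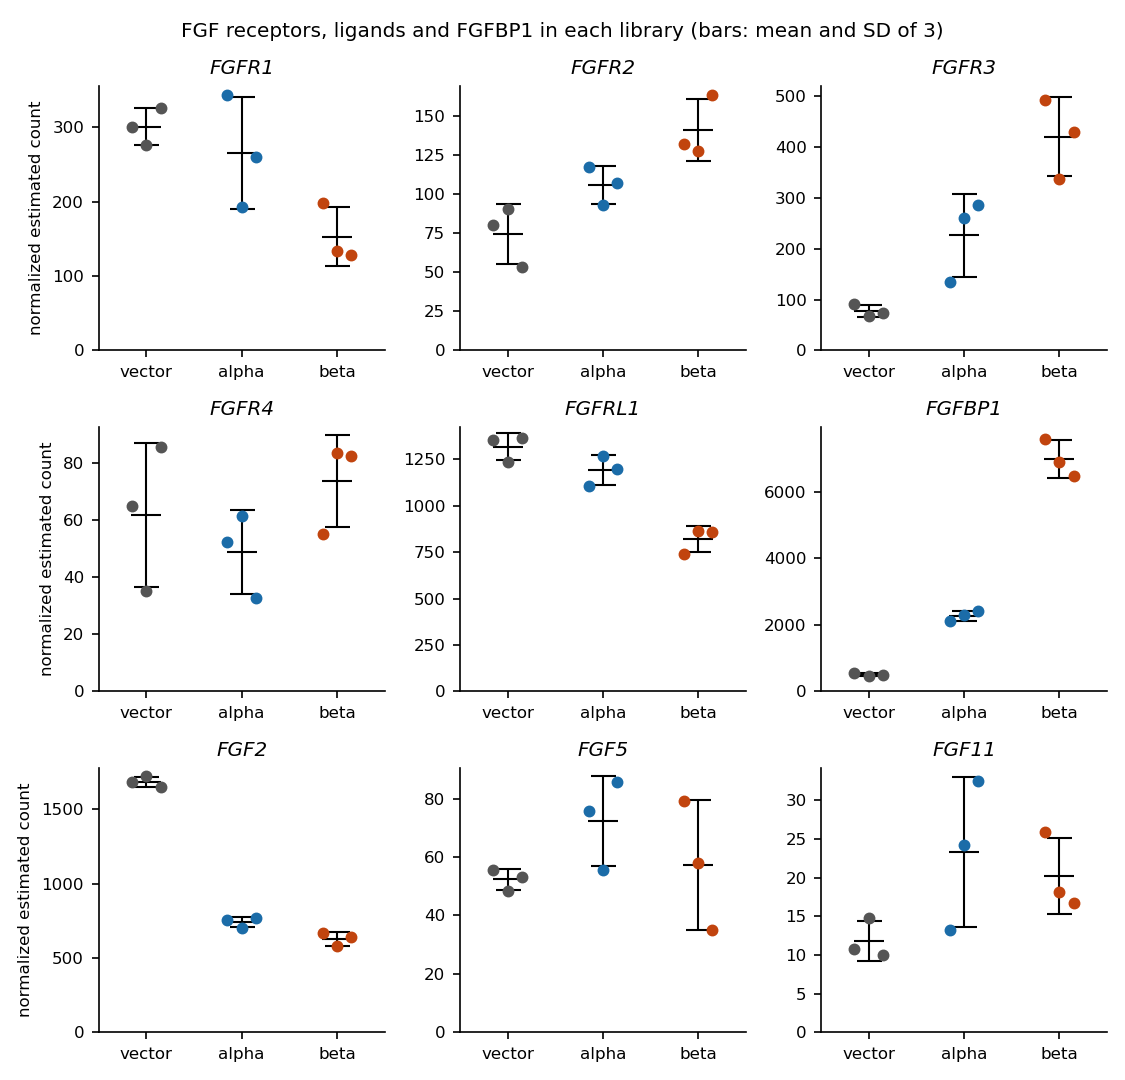
Normalized estimated counts (vertical axes, each starting at 0) of the 9 FGF genes in the 9 libraries, by group (alpha and beta are deltaNp63alpha and deltaNp63beta). Points are libraries, the bars give mean and SD of 3. FGFBP1 and FGFR3 have 3 groups that do not overlap, in the order vector, alpha, beta, and every FGF2 value of vector is at least 1653, while no other exceeds 769.

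**Figure D2:**
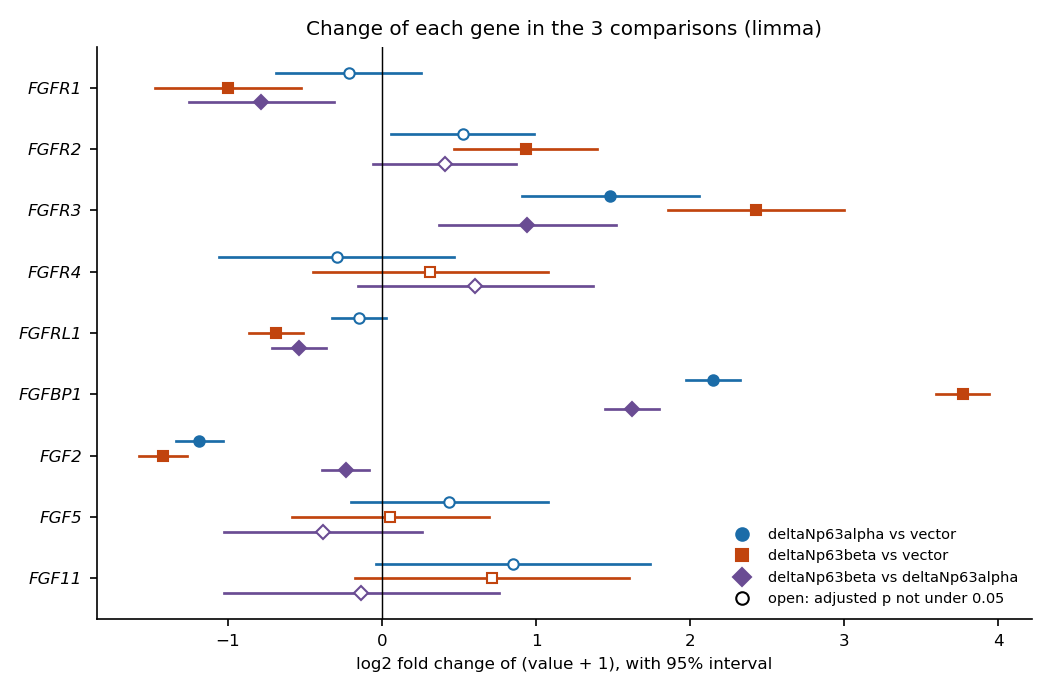
Log2 fold change of (value + 1) for each FGF gene (horizontal axis) with its 95% interval in the 3 comparisons. Filled symbols have a limma adjusted p under 0.05. The 3 FGFBP1 intervals are narrow and far above 0, while those of FGFR4, FGF5 and FGF11 are wide and none of these genes was called.

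Among the kinase receptors, FGFR3, known from skeletal growth and keratinocyte biology, showed the largest rise. Its values were 90.8, 67.5 and 72.9 in vector, 134, 260.0 and 287 with deltaNp63alpha, and 493, 338 and 430.1 with deltaNp63beta. No 2 of the 3 groups overlapped. Against vector its mean was 2.94 times as high with deltaNp63alpha (log2 fold change 1.48 ± 0.26 SE, limma adjusted p = 0.00275) and 5.46 times with deltaNp63beta (2.43 ± 0.26, limma adjusted p = 2.29e-05). FGFR3 was also higher with deltaNp63beta than with deltaNp63alpha, by 0.94 ± 0.26 on the log2 scale (limma adjusted p = 0.0167). The replicate with the lowest FGFR3 among the deltaNp63alpha libraries, replicate 1 at 134, also had the lowest TP63 of its group, 4426. The part of TP63 level in the FGFR3 values was not tested. Without that library the isoform difference was 0.60 (limma adjusted p = 0.0366). The isoform call was lost without deltaNp63beta replicate 1 (0.82, limma adjusted p = 0.06) and without a mean-variance trend in the fit (limma adjusted p = 0.0526).

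FGFR1 (ENSG00000077782, chromosome 8, 38400215 to 38468834, minus strand), the receptor most often tied to mesenchymal cells, went the other way with deltaNp63beta. It was at 301, 276 and 326 in vector, 344, 193 and 259.8 with deltaNp63alpha, and 198, 133 and 128 with deltaNp63beta. The deltaNp63alpha values were the most scattered and overlapped both other groups. FGFR1 was lower with deltaNp63beta than in vector by -0.997 ± 0.215 on the log2 scale, a ratio of means of 0.508 (limma adjusted p = 0.0032). With deltaNp63alpha the change was -0.22 ± 0.21 with a 95% interval from -0.69 to 0.26, which did not pass the test (limma adjusted p = 0.58). Between the isoforms it was lower with deltaNp63beta by -0.78 ± 0.21 (limma adjusted p = 0.0164). This isoform call was lost on leaving out deltaNp63alpha replicate 1 (limma adjusted p = 0.0644), deltaNp63beta replicate 2 (0.0601) or deltaNp63beta replicate 3 (0.0588). LETM2, a mitochondrial protein gene that overlaps FGFR1 on the opposite strand, was at 482 to 567 in vector, 472 to 522 with deltaNp63alpha and 326 to 352 with deltaNp63beta. Whether reads were counted by strand is not given in the sources used here, and the share of such reads in the FGFR1 values was not tested.

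FGFR2, the receptor whose epithelial form answers FGF7 and FGF10, rose with deltaNp63beta. It was at 80.3, 90.2 and 53.3 in vector, 117, 92.8 and 107 with deltaNp63alpha, and 132, 127 and 164 with deltaNp63beta. The groups stood in that order without overlap, although vector replicate 2 and deltaNp63alpha replicate 2 were close. Against vector the change was 0.93 ± 0.21 with deltaNp63beta (limma adjusted p = 0.00422) and 0.53 ± 0.21 with deltaNp63alpha, which did not pass the test (limma adjusted p = 0.131). The isoform difference of 0.41 had a 95% interval from -0.05 to 0.87 and did not pass either (limma adjusted p = 0.165). Gene-level values do not separate the epithelial and mesenchymal splice forms of FGFR1, FGFR2 and FGFR3.

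FGFR4, the receptor best known from liver and muscle, was scattered in every group. It was at 64.8, 35.2 and 85.5 in vector, 52.5, 61.5 and 32.5 with deltaNp63alpha, and 55.1, 83.6 and 82.3 with deltaNp63beta. All 3 groups overlapped and no comparison passed the test, with log2 changes of -0.29 for deltaNp63alpha against vector (95% interval -1.06 to 0.47) and 0.31 for deltaNp63beta against vector (-0.45 to 1.08). A change of 2-fold is inside both of these intervals.

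FGFRL1 had the highest level per kb of exon of the 5 receptor genes in vector, 318, and fell with deltaNp63beta. It was at 1354, 1234 and 1368 in vector, 1108, 1269 and 1200.4 with deltaNp63alpha, and 742, 863 and 858 with deltaNp63beta. All deltaNp63beta libraries lay below the other 6, while vector and deltaNp63alpha overlapped. FGFRL1 was lower with deltaNp63beta by -0.69 ± 0.08 against vector (limma adjusted p = 4.18e-05) and by -0.54 ± 0.08 against deltaNp63alpha (limma adjusted p = 0.000385). The change with deltaNp63alpha against vector was -0.15 ± 0.08 (limma adjusted p = 0.274).

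To set the receptors beside each other, values were divided by the length of each gene's merged exons. On this per-kb scale FGFR1 was the highest kinase receptor in vector, at 21.7 ± 1.81 (SD, n = 3), followed by FGFR3 at 15.9 ± 2.51, FGFR4 at 12.8 ± 5.24 and FGFR2 at 9.84 ± 2.52. The ranges of FGFR3 and FGFR4 overlapped, as did those of FGFR4 and FGFR2. With deltaNp63beta FGFR3 led at 86.7 ± 16.1, above FGFR2 at 18.6 ± 2.60, FGFR4 at 15.3 ± 3.32 and FGFR1 at 11.05 ± 2.83, and the last 3 overlapped from neighbour to neighbour. With deltaNp63alpha the order was FGFR3 at 46.8 ± 16.8, FGFR1 at 19.2 ± 5.47, FGFR2 at 13.95 ± 1.62 and FGFR4 at 10.1 ± 3.07, and only FGFR3 stood clear of the others.

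FGFR1 thus made up 36.1% of the summed per-kb level of the 4 kinase receptors in vector, 21.9% with deltaNp63alpha and 8.37% with deltaNp63beta. For FGFR3 the shares were 26.4%, 51.0% and 65.5%. FGFR2 held 16.7%, 15.7% and 14.2%, and FGFR4 20.8%, 11.5% and 11.9%. The summed per-kb level itself was 53.01 to 64.5 in vector, 78.8 to 98.7 with deltaNp63alpha and 113 to 145 with deltaNp63beta. A share of a sum changes for every member when 1 of them changes. With the longest coding transcript as length in place of the merged exons, a choice made after seeing the data, the FGFR1 shares were 47.9%, 32.6% and 14.3% and the FGFR3 shares 16.7%, 37.7% and 53.6%. On that scale FGFR4, at 19.8 per kb, stood above FGFR3, at 17.4, in vector, with overlapping ranges.

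The ratio of FGFR3 to FGFR1 per kb was 0.862, 0.699 and 0.639 in vector, 1.11, 3.85 and 3.15 with deltaNp63alpha, and 7.11, 7.26 and 9.61 with deltaNp63beta. The 3 groups did not overlap, and deltaNp63alpha replicate 1 lay nearest to vector. An exact two-sided permutation test gave p = 0.1 for each of the 3 pairs of groups, for this ratio and for the summed level, which is the smallest p that 3 against 3 libraries allow (adjusted p = 0.1 over the 6 tests). Dividing by the longest coding transcript lowered the ratio to 0.305 to 0.412 in vector, 0.531 to 1.84 with deltaNp63alpha and 3.40 to 4.59 with deltaNp63beta. With that length the FGFR3 and FGFR1 ranges overlapped with deltaNp63alpha, where FGFR3 was at 51.1 and FGFR1 at 43.8 per kb.

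**Figure D3:**
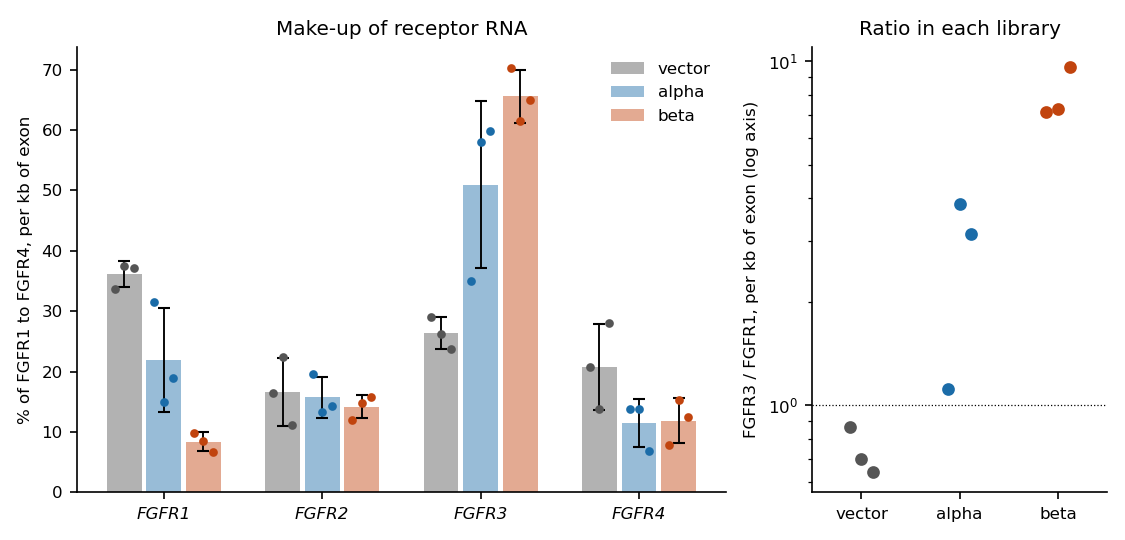
Left, the share of each kinase receptor in the summed per-kb level of FGFR1 to FGFR4 (vertical axis, percent), with bars for the mean, lines for the SD of 3 and points for libraries. Right, the per-kb ratio of FGFR3 to FGFR1 in each library on a log axis, under 1 in the 3 vector libraries and 7.11 to 9.61 with deltaNp63beta (alpha and beta are deltaNp63alpha and deltaNp63beta).

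FGFBP1, which encodes a secreted carrier that binds FGFs held in the matrix, changed the most of the 9 genes. It was at 561, 473 and 501 in vector, 2111, 2286 and 2403 with deltaNp63alpha, and 7581, 6896 and 6452 with deltaNp63beta. The groups were far apart, with the lowest deltaNp63beta library above the highest deltaNp63alpha library and that group above vector. Its mean was 4.43 times the vector mean with deltaNp63alpha (log2 fold change 2.15 ± 0.08, limma adjusted p = 4.06e-08) and 13.6 times with deltaNp63beta (3.77 ± 0.08, limma adjusted p = 6.17e-11). Between the isoforms it was higher with deltaNp63beta by 1.62 ± 0.08 (limma adjusted p = 9.69e-08). Per kb of exon FGFBP1 led the 9 genes in each group, at 377, 1668 and 5133. In vector this lead over FGFRL1, at 318, rested on the exon length, since with the longest coding transcript as length their ranges overlapped.

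FGF2, the basic fibroblast growth factor, was the highest of the 3 ligand genes per kb of exon in every group (249, 110 and 93.1) and fell with both isoforms. It was at 1684, 1721 and 1653 in vector, 754, 704 and 769 with deltaNp63alpha, and 671, 579 and 642 with deltaNp63beta. The lowest vector library was above 2 times the highest library of either isoform, and the isoform groups did not overlap each other. The log2 fold change against vector was -1.18 ± 0.07 with deltaNp63alpha (limma adjusted p = 8.39e-07) and -1.42 ± 0.07 with deltaNp63beta (limma adjusted p = 4.26e-08). The difference between isoforms was small, -0.24 ± 0.07 (limma adjusted p = 0.0235). That call was lost when only these groups were fitted (limma adjusted p = 0.0571) and without deltaNp63alpha replicate 1 (0.0625), deltaNp63alpha replicate 3 (0.0828) or deltaNp63beta replicate 2 (0.0871).

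Genes overlapping FGF2 and fibroblast marker genes were read beside this fall. NUDT6, a nudix hydrolase gene on the opposite strand that overlaps the 3′ part of FGF2, was at 170.0 to 192 in vector, 151 to 183 with deltaNp63alpha and 219 to 228 with deltaNp63beta. Its highest 3 values were those of the deltaNp63beta libraries, which had the lowest FGF2. The NUDT6 values of vector and deltaNp63alpha overlapped, while FGF2 was lower with deltaNp63alpha than in vector. A link between NUDT6 and FGF2 was not tested. The 7 fibroblast markers summed to 10601 to 10942 in vector, 7787 to 7912 with deltaNp63alpha and 12496 to 13571 with deltaNp63beta, most of it FBLN1. Of the 5 tested, 2 were lower with deltaNp63alpha, while 3 were higher and 1 lower with deltaNp63beta. The shares of all genes tested that were called there were 14.5% and 41.3%. DCN, a matrix proteoglycan gene, was lower with both, at 1208 to 1212, 343 to 359 and 140 to 198. The 3 called higher with deltaNp63beta were FBLN1, COL1A1 and MFAP5. Their means in vector and with deltaNp63beta were 9233 and 12426 for FBLN1, 236 and 340 for COL1A1, and 34.2 and 98.5 for MFAP5. With deltaNp63alpha FBLN1 was lower, at a mean of 7224. PDGFRA and COL1A2 did not pass the filter on low values. All libraries are of the MCF10A line, and a link between these marker genes and the FGF2 values was not tested.

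FGF5, known as a regulator of the hair cycle, was at 55.5, 48.3 and 53.2 in vector, 75.7, 55.4 and 85.8 with deltaNp63alpha, and 79.3, 57.9 and 34.9 with deltaNp63beta. The deltaNp63beta libraries spanned the vector values, and no comparison passed the test. The log2 changes against vector were 0.44 (95% interval -0.20 to 1.08) with deltaNp63alpha and 0.06 (-0.59 to 0.70) with deltaNp63beta. CFAP299, which overlaps the end of FGF5 on the same strand, did not exceed 7.44 in any library.

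FGF11 had the lowest level per kb of exon of the 9 genes in every group, 2.13, 4.18 and 3.63. It was at 10.8, 14.8 and 9.97 in vector, 13.2, 24.2 and 32.5 with deltaNp63alpha, and 25.8, 18.1 and 16.7 with deltaNp63beta. The deltaNp63beta group did not overlap vector, yet its log2 change of 0.72 (95% interval -0.17 to 1.61) did not pass the test (limma adjusted p = 0.184). With deltaNp63alpha the change was 0.85 (-0.04 to 1.74, limma adjusted p = 0.204). These values lie close to the filter of 10, where the pseudocount of 1 makes the log2 change smaller than that of the means.

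The 19 other FGF ligand genes had low values or were at 0. FGF3, FGF4, FGF6, FGF16 and FGF20 were at 0 in all 9 libraries, and 5 of the 19 passed the filter, FGF1, FGF7, FGF12, FGF13 and FGF23. No library exceeded 105 for any of the 19. In limma none of the 5 was called in any of the 3 comparisons, and 0 had an unadjusted p under 0.05. Without deltaNp63beta replicate 1, or without replicate 3 of that group, 1 ligand was called lower with deltaNp63beta than with deltaNp63alpha. FGF7, the stromal ligand of epithelial FGFR2, was at 10.2 to 20.3 over all libraries, and FGF10 at 0 to 5.74.

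Heparan sulfate proteoglycans present FGFs to their receptors. Of 13 co-receptor and binding protein genes 9 were tested, and 2 were called higher and 1 lower with deltaNp63alpha, and 5 higher and 1 lower with deltaNp63beta (median log2 changes -0.10 and 0.16). Of all genes tested, 14.5% and 41.3% were called in these comparisons. SDC1, the main syndecan of epithelia, was at 6825 to 7317 in vector, 16295 to 19049 with deltaNp63alpha and 13074 to 14031 with deltaNp63beta. It rose by 1.36 ± 0.06 and 0.95 ± 0.06 (limma adjusted p = 8.83e-08 and 2.33e-07), and unlike FGFBP1 it was lower with deltaNp63beta than with deltaNp63alpha (-0.41, limma adjusted p = 0.000308). The glypican gene GPC4 was at 149 to 196 in vector, 126 to 174 with deltaNp63alpha and 320.2 to 342 with deltaNp63beta, a rise of 0.99 ± 0.15 with deltaNp63beta (limma adjusted p = 0.00038). HSPG2, which encodes perlecan, rose by 0.37 ± 0.07 with deltaNp63beta (limma adjusted p = 0.0012). The Klotho co-receptor genes KL and KLB, needed for endocrine FGFs, did not pass the filter. Leaving out 1 library moved the counts with deltaNp63alpha to between 1 and 3 higher and 0 or 1 lower. GPC1 and SDC3 lost their calls with deltaNp63alpha without vector replicate 1 or 3 or without deltaNp63alpha replicate 2 or 3, and GPC1 also without vector replicate 2 (limma adjusted p 0.0556 to 0.115 for GPC1 and 0.0596 to 0.08 for SDC3). With deltaNp63beta SDC3 lost its call without vector replicate 1 or 3 or deltaNp63beta replicate 1 (0.0533 to 0.068). SDC4, called higher with deltaNp63beta, lost that call without any 1 of the vector or deltaNp63beta libraries. The SDC4 call was also lost with equal totals, quantile normalization or no mean-variance trend (limma adjusted p 0.0542 to 0.104 over all these settings).

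Enzymes that build and trim heparan sulfate moved in both directions. Of 12 genes tested, 1 was higher and 1 lower with deltaNp63alpha, and 5 were higher and 3 lower with deltaNp63beta (median log2 changes 0.11 and 0.17), where 14.5% and 41.3% of all genes tested were called. The 6-O-endosulfatase genes SULF1 and SULF2, whose enzymes remove 6-O-sulfate groups from heparan sulfate, moved oppositely. SULF1 was at 149 to 245 in vector, 72.2 to 117 with deltaNp63alpha and 31.1 to 60.5 with deltaNp63beta, and SULF2 was at 322 to 507, 796 to 981 and 733 to 880.0. SULF1 fell by -2.05 ± 0.28 with deltaNp63beta (limma adjusted p = 0.000152) and by -1.11 ± 0.28 with deltaNp63alpha (limma adjusted p = 0.0223). SULF2 rose by 0.99 ± 0.15 and 1.15 ± 0.15 (limma adjusted p = 0.000311 and 0.000374). HS6ST1, a 6-O-sulfotransferase gene, rose by 0.48 ± 0.07 with deltaNp63beta (limma adjusted p = 0.000302). The SULF1 call with deltaNp63alpha was lost without vector replicate 2 or 3, without deltaNp63alpha replicate 2 or 3, and without a mean-variance trend (limma adjusted p 0.0601 to 0.0909). A gene more was called higher with deltaNp63alpha, 2 in all, on leaving out any of the 3 deltaNp63beta libraries. HS3ST1, called higher with deltaNp63beta though its values overlapped vector, lost that call in 12 of the alternative fits (limma adjusted p 0.0537 to 0.179). EXT1, called lower there, lost its call without vector replicate 1, deltaNp63beta replicate 1 or a mean-variance trend (limma adjusted p 0.0579 to 0.0638). Between the isoforms 3 enzymes were higher and 3 lower with deltaNp63beta, and 1 was higher without deltaNp63alpha replicate 2 or 3 or deltaNp63beta replicate 2 or 3.

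Of 20 adaptor, RAS and MAP kinase genes, 4 were higher and 0 lower with deltaNp63alpha, where 6 were higher and 1 lower at an unadjusted p under 0.05. With deltaNp63beta 2 were higher and 2 lower, and between the isoforms 0 were higher and 6 lower with deltaNp63beta (2 and 9 at an unadjusted p under 0.05). Of all genes tested, 14.5%, 41.3% and 32.9% were called in these comparisons in either direction. Counted that way, the shares of this list called with deltaNp63alpha and between the isoforms were near those of all genes. With deltaNp63beta against vector the share was below that of all genes. By direction, 8.13% of all genes were higher and 6.37% lower with deltaNp63alpha, and 17.4% were higher and 15.5% lower between the isoforms. SHC1, a docking adaptor gene, was at 23219 to 24179 in vector, 28663 to 29975 with deltaNp63alpha and 24058 to 25516 with deltaNp63beta. It rose by 0.30 ± 0.03 with deltaNp63alpha (limma adjusted p = 0.000124) and MAP2K1, the gene of the kinase MEK1, by 0.23 ± 0.04 (limma adjusted p = 0.00334). Both were lower with deltaNp63beta than with deltaNp63alpha (-0.24 and -0.26, limma adjusted p = 0.000287 and 0.000783). HRAS, a RAS GTPase gene, was at 825 to 834 in vector, 944 to 1204 with deltaNp63alpha and 594 to 795 with deltaNp63beta, and was lower with deltaNp63beta than with deltaNp63alpha by -0.64 ± 0.11 (limma adjusted p = 0.0012). Its rise of 0.39 ± 0.11 with deltaNp63alpha against vector (limma adjusted p = 0.0382) was lost without any 1 of the vector libraries, without deltaNp63alpha replicate 2 or 3, and without a mean-variance trend (0.0888 to 0.138). The median log2 change of the 20 genes was 0.04, -0.03 and -0.13 in the 3 comparisons. With deltaNp63alpha 1 gene was called lower without deltaNp63alpha replicate 2. Leaving out 1 library moved the counts with deltaNp63beta against vector to between 0 and 2 higher and 1 to 4 lower. No gene was called higher there without vector replicate 1 or without vector replicate 3, and 4 were called lower without deltaNp63beta replicate 3. Between the isoforms the 6 lower became 3 without deltaNp63beta replicate 1, where 2 were called higher, and 1 was called higher without deltaNp63alpha replicate 1 or 2.

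Genes that FGF and MAP kinase signalling induce, including its feedback inhibitors, were called between the isoforms in 8 of 16 cases, where 32.9% of all genes were. Of these 16 tested, 5 were higher and 1 lower with deltaNp63alpha, 4 higher and 6 lower with deltaNp63beta, and 1 higher and 7 lower with deltaNp63beta than with deltaNp63alpha (median log2 changes 0.14, -0.06 and -0.17). Against vector 14.5% of all genes were called with deltaNp63alpha and 41.3% with deltaNp63beta. DUSP6, the phosphatase gene that acts on ERK, was at 2174 to 2575 in vector, 3583 to 4051 with deltaNp63alpha and 1458 to 1664 with deltaNp63beta. It was higher by 0.73 ± 0.08 with deltaNp63alpha and lower by -0.61 ± 0.08 with deltaNp63beta (limma adjusted p = 7.5e-05 and 8.65e-05). The immediate early gene EGR1 followed the same order, at 2238 to 2617, 3424 to 4360.5 and 1447 to 1527, with changes of 0.65 ± 0.09 and -0.74 ± 0.09 (limma adjusted p = 0.000413 and 4.33e-05). The isoform difference itself was -1.33 for DUSP6 (limma adjusted p = 3.5e-07) and -1.39 for EGR1 (limma adjusted p = 5.92e-07).

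SPRY4 fell with deltaNp63beta, DUSP4 fell with both isoforms and DUSP5 rose with both. SPRY4, a Sprouty gene, was at 2115 to 2426 in vector, 2483 to 2706 with deltaNp63alpha and 973 to 1135 with deltaNp63beta, a fall of -1.12 ± 0.07 with deltaNp63beta (limma adjusted p = 3.08e-07). With deltaNp63alpha its change of 0.19 did not pass (limma adjusted p = 0.108). DUSP4 was at 5966 to 6182, 5013 to 5198 and 2997 to 3489, lower by -0.26 and -0.88 (limma adjusted p = 0.0089 and 3.25e-07), and the smaller call was lost without a mean-variance trend (0.0507). DUSP5 rose by 0.87 ± 0.08 with deltaNp63alpha and 0.28 ± 0.08 with deltaNp63beta (limma adjusted p = 1.66e-05 and 0.012), and the ETS factor gene ETV4 by 0.47 and 0.41 (0.00269 and 0.00204). The count of 4 higher with deltaNp63beta was 2 without vector replicate 3, deltaNp63beta replicate 2 or deltaNp63beta replicate 3, where SPRY1 and SPRY2 lost their calls (limma adjusted p 0.0531 to 0.0769 for SPRY1 and 0.0528 to 0.108 for SPRY2). The count of 1 lower with deltaNp63alpha was 2 without deltaNp63beta replicate 2, and the count of 1 higher between the isoforms was 2 without vector replicate 3. SPRED2, called higher with deltaNp63alpha, lost that call in 8 alternative fits, among them each fit without a vector library (limma adjusted p 0.0506 to 0.152). FLRT3, called lower with deltaNp63beta, lost its call in 5, again with each of those among them (limma adjusted p 0.0551 to 0.102). The medium held epidermal growth factor, which feeds the same cascade, and its part in these levels was not tested.

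**Figure D4:**
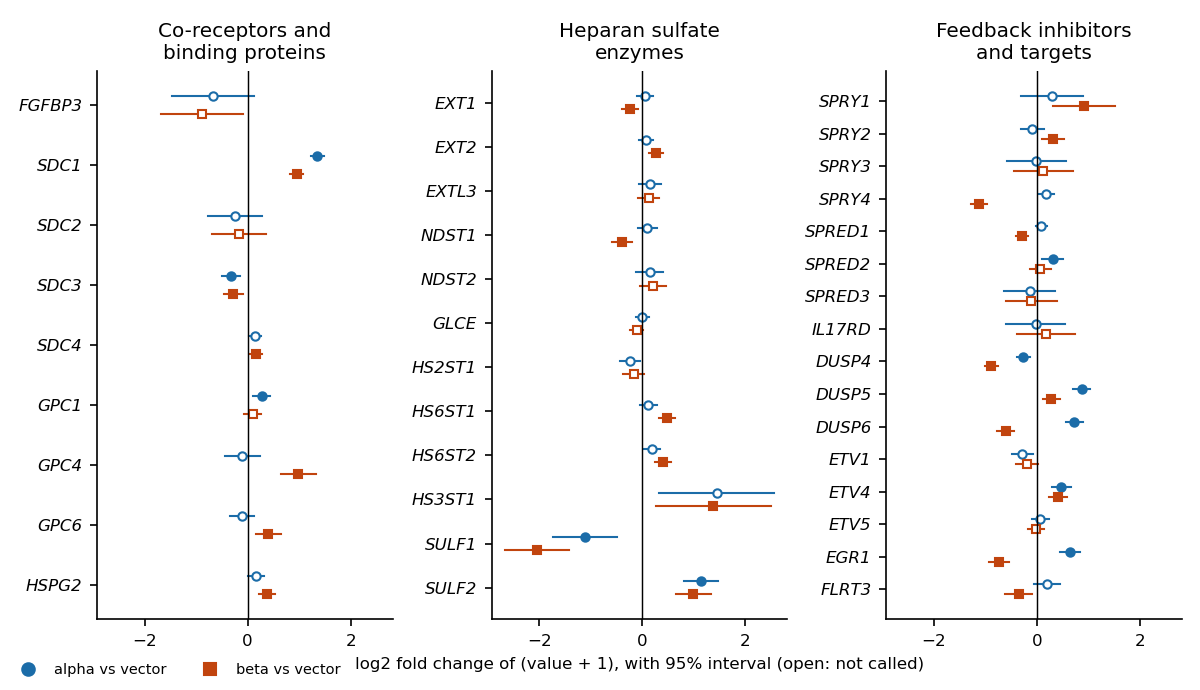
Log2 fold change of (value + 1) against vector (horizontal axes) with 95% intervals for the tested genes of 3 lists, deltaNp63alpha as circles and deltaNp63beta as squares. Filled symbols have a limma adjusted p under 0.05. DUSP6 and EGR1 lie above 0 with deltaNp63alpha and under 0 with deltaNp63beta, SDC1 and SULF2 lie above 0 and SULF1 lies under 0 with both.

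The receptors' splice form is set in part by RNA-binding proteins, whose genes were read since the files do not separate the forms. ESRP1, which favours the epithelial forms of FGFR1, FGFR2 and FGFR3, was at 655 to 710.2 in vector, 1269 to 1376 with deltaNp63alpha and 2488 to 2513 with deltaNp63beta. It rose by 0.96 ± 0.06 and 1.88 ± 0.06 (limma adjusted p = 7.37e-07 and 8.15e-10), and its 3 groups did not overlap. Its paralogue ESRP2 rose by 0.45 ± 0.08 and 0.53 ± 0.08 (limma adjusted p = 0.00329 and 0.000313). Of the 5 splicing regulator genes, 2 were higher and 0 lower with deltaNp63alpha (2 and 1 at an unadjusted p under 0.05), and 3 were higher and 2 lower with deltaNp63beta, where 14.5% and 41.3% of all genes were called. The third rise was HNRNPA1, by 0.23 ± 0.03 (limma adjusted p = 8.76e-05). Lower with deltaNp63beta were RBFOX2, by -0.14 ± 0.05, and PTBP1, by -0.22 ± 0.05 (limma adjusted p = 0.0279 and 0.00462). The joint effect of the 5 on the receptors' splice forms was not tested. The count of 2 lower was 1 without vector replicate 3, deltaNp63beta replicate 1 or deltaNp63beta replicate 2.

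The genes whose levels followed those of FGFBP1, FGFR3 and FGF2 most closely over the 9 libraries were found by Pearson correlation of log2(value + 1). This is a description of 9 libraries in 3 groups, so any gene with the same order of group means scores high. For FGFBP1 they were CD9, a tetraspanin gene (r = 0.998), CLCA2 (0.998) and the basal keratin gene KRT5 (0.996). The means of CLCA2 were 1037, 2824 and 5890.4 in vector, deltaNp63alpha and deltaNp63beta, and those of KRT5 were 55464, 92598 and 146977, both in the order of FGFBP1 but with smaller fold changes. For FGFR3 they were F12, the gene of coagulation factor XII (r = 0.995), MRPS18A (0.985) and TMTC2 (0.983), of which F12 had means of 498, 651 and 796. For FGF2 they were the sulfate transporter gene SLC26A2 (r = 0.991), CDH2, which encodes N-cadherin (0.990), and MBOAT2 (0.986). SLC26A2 had means of 13716, 6734 and 5953 and CDH2 of 1733, 1043 and 857, and both had smaller log2 changes against vector than FGF2.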

How the data were processed

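Poly(A) RNA of 9 MCF10A cultures, 3 per group, was sequenced. Per the submitters' processing notes, the authors used kallisto 0.46.2, GRCh38 and DESeq2, whose version is not given, and deposited 1 table per library. The signal values in the deposited tables are normalized estimated counts per gene, per the submitters' processing notes, and no source used here names the step that wrote them. Of the 41857 gene IDs, 36387 matched a symbol and 15915 were at 0 in all libraries. Low values lay on a step of 0.917 to 1.10 per library, but only 60.9% to 63.7% of those up to 20 steps came within 0.1 step of a whole multiple, so whole reads were not recovered and no count test was run. The step put the depth at about 20.4 to 24.5 M fragments. Intervals for counting error were not computed.

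Values were tested as log2(value + 1) in limma (3.58.1, R 4.3.3), moderated robustly with a mean-variance trend, for the 15108 genes with at least 10 in at least 3 libraries. It had a coefficient per group, no block and 6 residual degrees of freedom. Over all genes the SE of a log2 fold change had a median of 0.109, and the pseudocount makes changes of low genes smaller. The script was checked on simulated data. Per-kb values used exon lengths of GENCODE 29. Reading, promoter searches and figures used Python 3.11.15 with numpy 2.4.6, matplotlib 3.10.9 and pandas 2.3.3.

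The genes and the 12 lists (124 entries, all matched) were chosen with earlier results of these data known. The text names the 9 genes, TP63, per pathway list the 3 tested genes with the smallest adjusted p and others where 5 or fewer were called in 1 direction, genes overlapping the 9, and for the 3 genes with the widest range of group means the 3 most correlated genes. Some marker genes, other ligands and FLRT3 were named after their values were seen. Alternatives were pseudocounts of 0.1 and 5, 2 other filters, median-of-ratios factors, equal totals, quantile normalization, only the groups compared, a replicate block, no trend, and leaving out each library. The labels give no batch or date. The replicates are labelled biological, and p-values measure the spread between these cultures.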

Additional observations from a re-analysis of the deposited data

How the results depend on the processing

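Over 10 alternative settings and 9 fits without 1 library, the log2 changes of the 9 FGF genes gave 510 values. Of these, 501 stayed on the same side of the threshold, 9 lost a call and 0 reversed a call. A change of sign was not counted where no call was made. It occurred with deltaNp63beta against vector for FGFR4 (-0.04 to 0.59) and FGF5 (-0.21 to 0.37). Between the isoforms it occurred for FGF11 (-0.48 to 0.14). The 9 losses all concern deltaNp63beta against deltaNp63alpha and stand beside FGFR3, FGFR1 and FGF2 in the report. For genes higher in that comparison, the count of 2 among the 9 became 1 with no mean-variance trend and was 1 to 2 without 1 library, and the count of 3 lower was 1 to 3. The count of all genes lower with deltaNp63alpha against vector, 963, was 640 to 1022 without 1 library, lowest without vector replicate 3. The causes were not tested, beyond the smaller number of libraries. Replicate numbers showed no clear pairing, with residuals correlated at -0.12 to 0.08 between libraries of 1 number and at -0.14 to 0.12 between others. Whether libraries of 1 number were handled together was not tested. With a replicate block, 2 of the 9 genes were higher and 3 lower with deltaNp63beta against deltaNp63alpha, and 2435 of all genes were higher and 2148 lower, beside 2625 and 2340 without it. The largest shift of the median of all genes was -0.04, with equal totals. FGF11, which was near the filter, and FGF5 and FGFR4, which were above it, had SEs of 0.29 to 0.40 on the log2 scale. Small differences of these genes were not detectable. When a library is left out, the pair remaining in its group is assumed to vary like the other groups.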
